A study of Mus musculus with 12 samples.

Results

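Aldehyde dehydrogenases are enzymes that oxidize aldehydes, which arise from alcohols, fats, amino acids and vitamin A, to the matching acids. High enzymatic activity of the family is widely used to enrich for stem-like carcinoma cells, an activity usually credited to Aldh1a1 and Aldh1a3, which also make retinoic acid. 10 genes of the family were chosen by symbol, out of 21 Aldh protein-coding genes in the annotation and 35521 genes with transcripts in the files. All 10 were found.

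RNA-Seq was performed on 4T1 cells, a mouse mammary carcinoma line of BALB/c origin, in 3 groups of 4 libraries. Tu-Gr1+CD11b+-primed 4T1 cells had shared a Transwell plate (0.4 µm pores) for 48 hours with Gr1+ cells taken from tumors of 4T1-bearing BALB/c mice, which the labels place at day 21 after injection. Spl-Gr1+CD11b+-primed 4T1 cells had been cocultured in the same way with Gr1+ cells from the spleens of such mice, and parental 4T1 cells had no Gr1+ partner. The Gr1+ cells came from a magnetic column and stayed in the other compartment, so that the RNA is that of the 4T1 well, and the labels do not say whether the 4 libraries of a group come from separate cultures or mice. If they do not, the p-values measure only the spread between these libraries, which may be technical. The shorter names Tu-primed, Spl-primed and parental are used below.

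The libraries held between 24566183 and 31637755 estimated reads on transcripts. All 6 markers of mammary carcinoma epithelium were above 3 reads in every library. Of 14 markers of granulocytes and other myeloid cells, 3 were above 3 reads in every library, and their summed level was 6.63 to 11.7 CPM in Tu-primed, 5.12 to 7.15 CPM in Spl-primed and 5.79 to 6.81 CPM in parental cells. Of these myeloid markers 6 had 0 reads in every Tu-primed library, 7 in every Spl-primed and 5 in every parental library. The edgeR test held 3 of them, of which 2 were higher and 0 lower in Tu-primed than in Spl-primed cells, 2 were higher in Tu-primed than in parental cells (1 in limma-voom), and 0 passed in Spl-primed against parental cells (0 also in DESeq2, in limma-voom and at an unadjusted edgeR p under 0.05). The summed level of the epithelial markers separated the groups, at 1837 to 2247 CPM in Tu-primed, 2332 to 2514 CPM in Spl-primed and 2610 to 3894 CPM in parental cells. Single markers did not all follow this sum. Between the primed groups 0 of 6 passed in edgeR and 1 was lower in DESeq2. At an unadjusted edgeR p under 0.05, 5 were lower in Tu-primed than in Spl-primed cells. Against parental cells 0 were higher and 4 lower in Tu-primed, and 1 was higher and 3 lower in Spl-primed cells. The higher one was Epcam, by 0.30 ± 0.08 on the log2 scale (edgeR adjusted p = 0.00573). When counts were scaled by library totals alone, 1 was higher and 3 were lower in Tu-primed, and 1 was higher and 1 lower in Spl-primed cells. Reads on mitochondrial genes made up 2.09 to 2.53% of a Tu-primed library, 2.52 to 3.16% of a Spl-primed library and 4.24 to 6.73% of a parental library. The part of these differences in the results below was not tested.

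The enzymes share a catalytic cysteine, and the coding bases around it were compared between members. The codon was found by translating the longest complete coding sequence of each gene in GENCODE M21 and searching for the family's cysteine signature. The signature matched in 8 of the 10 genes. It did not match in Aldh7a1 or Aldh18a1, which does not show that these enzymes lack the cysteine. The 36 bases that encode it are shown 5′ to 3′ on the coding strand, with the cysteine codon in capitals.
Aldh2: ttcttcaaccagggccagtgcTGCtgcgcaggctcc
Aldh1b1: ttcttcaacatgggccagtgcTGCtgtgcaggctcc
Aldh1a3: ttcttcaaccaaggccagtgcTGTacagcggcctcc
Aldh1a1: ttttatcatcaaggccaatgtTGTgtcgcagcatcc
Aldh9a1: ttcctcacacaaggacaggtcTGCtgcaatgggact
Aldh3a1: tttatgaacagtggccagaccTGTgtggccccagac
Aldh3b1: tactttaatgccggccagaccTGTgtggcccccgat
Aldh3a2: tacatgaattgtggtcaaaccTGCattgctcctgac
Aldh2 and Aldh1b1 were identical at 33 of these 36 bases, Aldh3a1 and Aldh3b1 at 26, Aldh3a1 and Aldh3a2 at 25, and Aldh3a1 and Aldh2 at 18. The stretch lies at codon 321 of Aldh2 (exon 9, chr5:121572790-121572825, minus strand of GRCm38), at codon 244 of Aldh3a1 (exon 6, chr11:61215509-61215544, plus strand) and at codon 241 of Aldh3a2 (exon 5, chr11:61258804-61258839, minus strand). In Aldh9a1 it is split between exons 6 and 7 at codon 312.

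This likeness matters for counting only where longer runs of bases are shared. Of all the 31-base words in the transcripts of each gene, 0 occurred in another gene's transcripts for Aldh2, Aldh3a1, Aldh3a2, Aldh9a1, Aldh18a1 and Aldh1b1. Aldh3b1 shared 15.2% of its words, mostly with Aldh3b3, and Aldh1a1 shared 5.70%, all with Aldh1a7. Aldh7a1 shared 7.50%, mostly with Phax, and Aldh1a3 2.24%, mostly with Casc4, which are not Aldh genes and whose reads were not examined. Aldh3b3 was assigned 0 reads in every library and Aldh1a7 at most 3, so few reads were given to these Aldh copies.

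The order of the members was read from CPM per kilobase of effective transcript length, since longer transcripts give more reads. Aldh2, the mitochondrial enzyme that clears acetaldehyde, had the highest level in every group, at 269 ± 22 (SD, n = 4) in Tu-primed, 300 ± 24 in Spl-primed and 368 ± 19 CPM per kilobase in parental cells. Aldh3a1 stood next in parental cells, at 109 ± 12, above Aldh3a2 at 68.5 ± 2.4. In Tu-primed cells the order of these neighbours was the opposite, with Aldh3a2 at 78.9 ± 3.6 and Aldh3a1 at 54.7 ± 4.4 CPM per kilobase, and in neither of these groups did the libraries of the pair overlap. In Spl-primed cells the ranges of Aldh3a2 (75.5 to 87.5) and Aldh3a1 (62.8 to 75.8) overlapped. Aldh9a1, Aldh7a1, Aldh18a1 and Aldh3b1 followed in this order in every group without overlap, from 48.1 ± 3.2 for Aldh9a1 to 3.24 ± 0.27 CPM per kilobase for Aldh3b1 in parental cells. Aldh1a1, Aldh1a3 and Aldh1b1 were at most 0.355 CPM per kilobase in any library, and neighbours in their order overlapped, except Aldh1a1 and Aldh1b1 in parental cells.

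**Figure D1:**
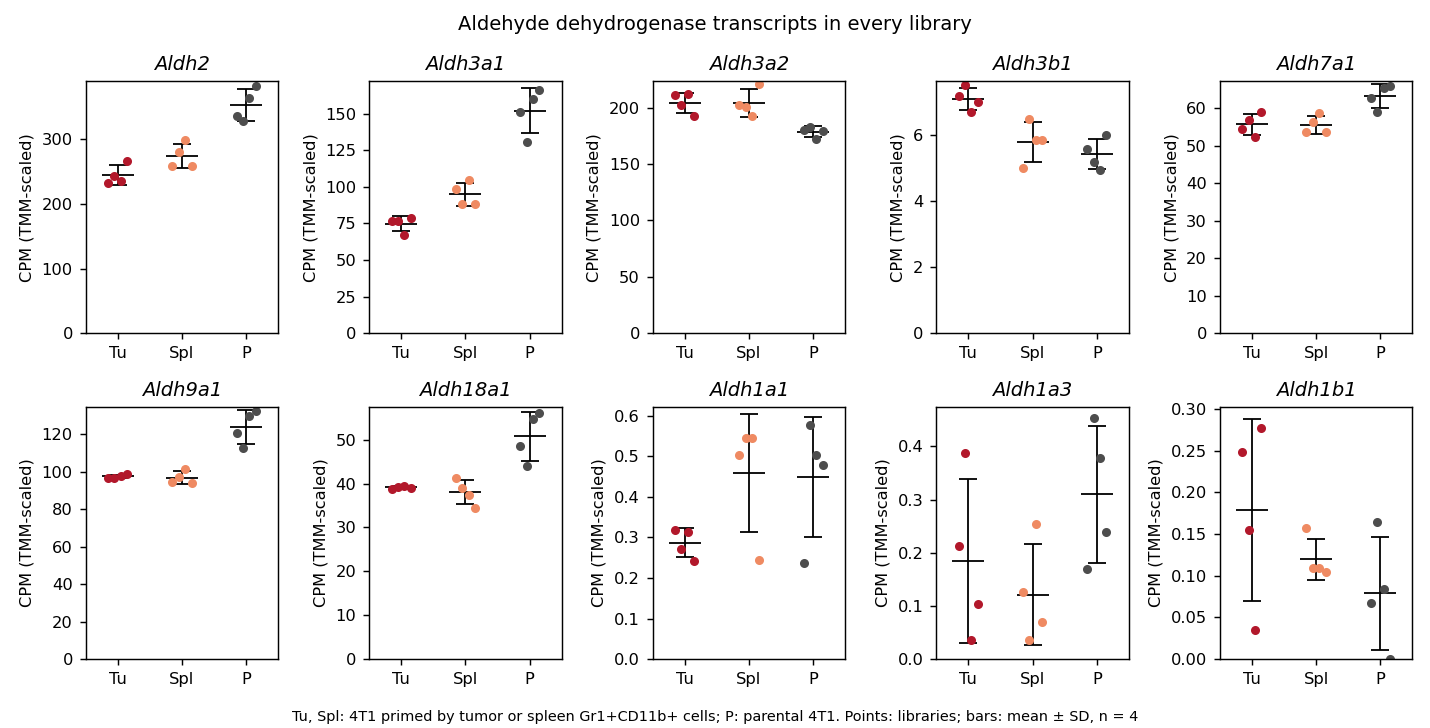
Each panel plots the level of 1 gene (y axis, CPM, which are counts scaled to the TMM library size, starting at 0) in Tu-primed (Tu), Spl-primed (Spl) and parental (P) 4T1 cells. Points are the 4 libraries of a group and bars the mean ± SD. Aldh3a1 steps down from parental to Spl-primed to Tu-primed cells without overlap, whereas Aldh3a2 is higher in all 8 primed libraries than in any parental library, and the last 3 panels rest on 16 reads or fewer per library.

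The first question was which members differ between tumor-derived and spleen-derived priming. Of the 10 members, 8 had enough reads to enter the edgeR fit, in which p-values were adjusted over all 12555 tested genes by the Benjamini-Hochberg method. 1 was lower in Tu-primed than in Spl-primed cells, 0 were higher and 7 did not pass an adjusted p of 0.05, and DESeq2 and limma-voom gave the same counts. At an unadjusted edgeR p under 0.05, 1 was higher and 2 were lower. Over all tested genes, 7.63% passed in either direction, 4.66% as higher and 2.97% as lower. 2 members had no overlap between the groups of libraries, beside 17.0% of all tested genes. Over the 8 tested members the log2 fold change had a median of 0.00, beside -0.01 over all tested genes.

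The member that passed was Aldh3a1, which acts on aromatic and medium-chain aldehydes and is known as a target of the aryl hydrocarbon receptor. It is located at chr11:61207537-61218421 on the plus strand (GRCm38). Its level in the Tu-primed libraries was 76.6, 76.5, 67.3 and 79.0 CPM. In the Spl-primed libraries it was 98.4, 88.4, 104.7 and 88.5 CPM. Every Tu-primed library lay below every Spl-primed library, and the log2 fold change was -0.34 ± 0.08 (SE, 95% interval -0.52 to -0.17, edgeR adjusted p = 0.0188), a ratio of 0.788. The call was lost on leaving out single libraries, with an adjusted p of 0.0503 without Tu-primed replicate 2, 0.0783 without Tu-primed replicate 3, 0.0552 without Spl-primed replicate 1 and 0.0671 without Spl-primed replicate 3. With transcript length offsets it was 0.0767. The log2 fold change stayed between -0.38 and -0.28 in all 12 fits that left out 1 library. In bulk RNA, fewer cells with a transcript and less of it per cell cannot be told apart.

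Aldh3b1, a membrane-associated enzyme for medium-chain and long-chain aldehydes (chr19:3913491-3929808, minus strand), was the other member without overlap. It measured 7.17, 7.50, 6.68 and 6.98 CPM in the Tu-primed libraries and 4.99, 6.47, 5.85 and 5.84 CPM in the Spl-primed libraries. The highest Spl-primed library lay just below the lowest Tu-primed library, and the log2 fold change of 0.29 ± 0.10 (95% interval 0.08 to 0.50) had an edgeR adjusted p of 0.0871. Aldh2 had values of 232 to 266 CPM in Tu-primed and 259 to 298 CPM in Spl-primed cells, which overlapped, and a log2 fold change of -0.17 ± 0.07 (edgeR adjusted p = 0.158).

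4 members had nearly equal levels in both primed groups. The 95% interval of the log2 fold change between Tu-primed and Spl-primed cells was -0.11 to 0.12 for Aldh3a2, -0.11 to 0.12 for Aldh7a1, -0.11 to 0.13 for Aldh9a1 and -0.12 to 0.20 for Aldh18a1. For Aldh1a1 the interval was much wider, -1.40 to 0.07 around -0.67, with 7 to 16 reads per library (edgeR adjusted p = 0.269).

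**Figure D2:**
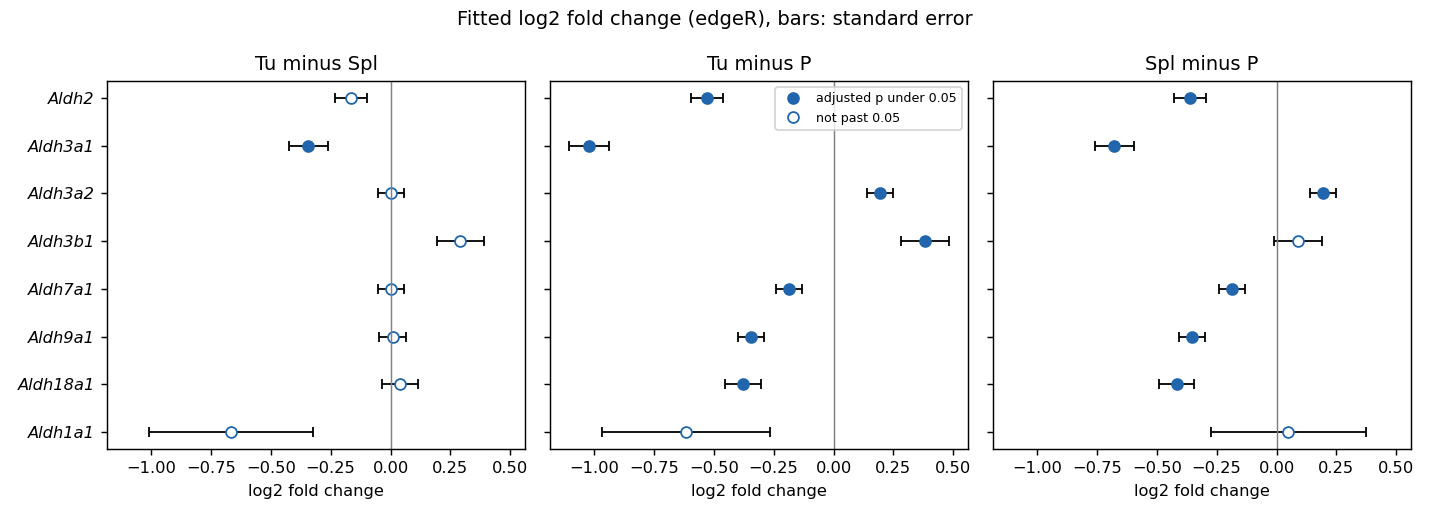
The 3 panels plot the fitted log2 fold change of the 8 tested members (x axis) in Tu-primed minus Spl-primed, Tu-primed minus parental and Spl-primed minus parental cells, with the standard error as the bar. Filled points passed an edgeR adjusted p of 0.05, which holds for 1, 7 and 6 members from left to right, and the bar of Aldh1a1 is the widest in each panel.

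Both primed groups were then compared with parental cells, to ask which members differ from 4T1 cells without Gr1+ partners. The comparisons share the parental libraries and are therefore given side by side. In Tu-primed cells 2 members were higher and 5 lower, and in Spl-primed cells 1 was higher and 5 were lower. Over all tested genes the shares were 59.2% (31.2% higher, 28.0% lower) for Tu-primed and 48.2% (25.7% higher, 22.5% lower) for Spl-primed against parental cells. Groups did not overlap for 7 members and 55.5% of all tested genes in the former, and for 6 members and 39.6% in the latter. The median log2 fold change of the tested members was -0.36 in Tu-primed and -0.27 in Spl-primed cells, beside 0.02 over all tested genes in each. The summed level of the 10 members was 723 ± 13 CPM in Tu-primed, 770 ± 21 CPM in Spl-primed and 927 ± 54 CPM in parental cells, with no overlap between any of the groups.

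These directions depend on the scaling, since TMM factors were 0.88 to 0.95 in parental and 1.01 to 1.05 in primed libraries. With library totals in place of TMM, a setting chosen after seeing the data, the median log2 fold change over all tested genes against parental cells was 0.21 in Tu-primed and 0.19 in Spl-primed cells. The shares of all tested genes called were then 47.5% higher and 14.0% lower in Tu-primed, and 42.8% higher and 8.45% lower in Spl-primed cells. On that scale 2 members were higher and 4 lower in each primed group, and the summed level was 758 ± 15 CPM in Tu-primed, 798 ± 31 CPM in Spl-primed and 852 ± 21 CPM in parental cells, where Spl-primed cells overlapped with both other groups. In the deposited TPM the median over all tested genes was 0.49 in Tu-primed and 0.42 in Spl-primed cells, and the summed level was 684 ± 24 TPM in Tu-primed, 713 ± 24 TPM in Spl-primed and 654 ± 40 TPM in parental cells. Aldh2, Aldh7a1, Aldh9a1 and Aldh18a1, all lower than in parental cells on the TMM scale, had log2 TPM differences above 0 in both primed groups. Relative to the TPM median, these differences were -0.48, -0.17, -0.27 and -0.36 in Tu-primed and -0.31, -0.23, -0.29 and -0.33 in Spl-primed cells, in the same gene order. Aldh3a1 was lower in both primed groups on each of the 3 scales, and Aldh3a2 was higher. The values that follow are on the TMM scale.

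Aldh3a1 also had the largest change against parental cells among the members that passed. The parental libraries held 150.9, 130.8, 160.0 and 166.0 CPM. Parental replicate 2, the lowest, was above every primed library. Aldh3a1 fell by 1.02 ± 0.08 on the log2 scale in Tu-primed cells (edgeR adjusted p = 4.90e-07, a ratio of 0.493) and by 0.68 ± 0.08 in Spl-primed cells (edgeR adjusted p = 2.73e-05, a ratio of 0.626). Its share of the reads of all 10 members was 16.4% ± 0.8 in parental, 12.3% ± 0.8 in Spl-primed and 10.3% ± 0.6 in Tu-primed cells, again without overlap.

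Aldh2 (chr5:121566027-121593824, minus strand) held 335, 328, 363 and 382 CPM in the parental libraries, 259, 279, 298 and 259 CPM in the Spl-primed libraries and 232, 243, 235 and 266 CPM in the Tu-primed libraries. All 8 primed libraries lay below all 4 parental libraries. Aldh2 fell by 0.53 ± 0.07 on the log2 scale in Tu-primed (edgeR adjusted p = 1.99e-05) and by 0.36 ± 0.07 in Spl-primed cells (edgeR adjusted p = 0.000667), whereas its log2 TPM differences were 0.0099 and 0.10.

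The enzymes of amino acid and carnitine metabolism were lower as well on the TMM scale, though not in TPM, and by similar amounts in both primed groups. Aldh9a1, which acts in carnitine synthesis (chr1:167349991-167368532, plus strand), held 121, 113, 130 and 132 CPM in the parental libraries. The primed libraries ranged from 94.0 to 101.8 CPM, all below the parental ones. Its log2 fold change was -0.35 ± 0.06 in Tu-primed (edgeR adjusted p = 0.000125) and -0.35 ± 0.06 in Spl-primed cells (edgeR adjusted p = 0.000191).

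Aldh18a1 makes the precursor of proline from glutamate and is located at chr19:40550257-40588463 on the minus strand. It held 48.5, 44.0, 54.7 and 56.0 CPM in the parental libraries. The Tu-primed libraries were tightly grouped at 38.8 to 39.5 CPM and the Spl-primed libraries ranged from 34.5 to 41.2 CPM, below all parental libraries. Aldh18a1 fell by 0.38 ± 0.07 on the log2 scale in Tu-primed (edgeR adjusted p = 0.000658) and by 0.42 ± 0.07 in Spl-primed cells (edgeR adjusted p = 0.000512).

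Aldh7a1, an enzyme of lysine breakdown (chr18:56509687-56572951, minus strand), had the smallest decrease. Parental libraries held 62.8, 58.9, 65.5 and 66.1 CPM and primed libraries 52.4 to 58.9 CPM. The highest primed library, Tu-primed replicate 4, was just below the lowest parental library, replicate 2. Aldh7a1 fell by 0.19 ± 0.05 on the log2 scale in Tu-primed (edgeR adjusted p = 0.00972) and by 0.19 ± 0.05 in Spl-primed cells (edgeR adjusted p = 0.0116). With library totals its log2 fold change was 0.0042 in Tu-primed (edgeR adjusted p = 0.952) and -0.014 in Spl-primed cells (edgeR adjusted p = 0.848), so that both calls were lost. With transcript length offsets the adjusted p in Tu-primed cells was 0.0504.

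2 members of the Aldh3 group were higher in Tu-primed cells, and 1 of them in Spl-primed cells. Aldh3a2, which oxidizes fatty aldehydes at the endoplasmic reticulum, held 180, 183, 172 and 179 CPM in the parental libraries. It held 211, 202, 212 and 192 CPM in the Tu-primed and 203, 200, 192 and 221 CPM in the Spl-primed libraries. Every primed library was above every parental library, and the log2 fold change was 0.19 ± 0.05 in Tu-primed (edgeR adjusted p = 0.00696) and 0.19 ± 0.05 in Spl-primed cells (edgeR adjusted p = 0.00941). Aldh3b1 held 5.56, 5.19, 4.95 and 5.99 CPM in the parental libraries, all below the Tu-primed libraries. It rose by 0.38 ± 0.10 on the log2 scale in Tu-primed cells (edgeR adjusted p = 0.00436), whereas Spl-primed and parental libraries overlapped at a log2 fold change of 0.09 ± 0.10 (edgeR adjusted p = 0.478), which was 0.26 with library totals (edgeR adjusted p = 0.0451).

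Aldh3a1 and Aldh3a2 are neighbours on chromosome 11 and face each other tail to tail, with 4995 bases between the annotated ends (Aldh3a2, chr11:61223417-61267464, minus strand). The ratio of their reads needs no scaling between libraries. It was 0.836, 0.714, 0.931 and 0.927 in the parental libraries. It was 0.363, 0.379, 0.318 and 0.411 in the Tu-primed and 0.486, 0.441, 0.544 and 0.400 in the Spl-primed libraries. Both primed groups lay below the parental group, and the primed groups overlapped, since Tu-primed replicate 4 was above Spl-primed replicate 4.

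**Figure D3:**
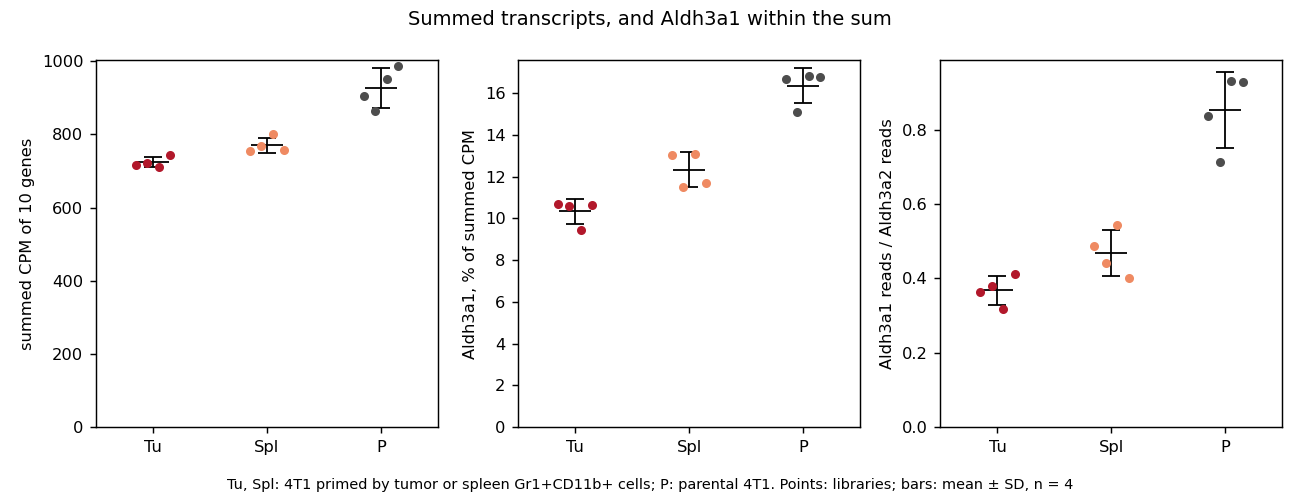
The panels plot, from left to right, the summed TMM-scaled CPM of the 10 genes, the percentage of that sum contributed by Aldh3a1, and the ratio of Aldh3a1 to Aldh3a2 reads, in Tu-primed (Tu), Spl-primed (Spl) and parental (P) cells. Points are libraries and bars the mean ± SD (n = 4). The parental libraries are apart from all primed libraries in each panel, and the ratio lies between 0.714 and 0.931 in them against at most 0.544 in primed cells.

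The genes most often linked with aldehyde dehydrogenase activity were close to the lower limit of detection. Aldh1a1 (chr19:20492715-20643465, plus strand) had 9, 7, 9 and 7 reads in the Tu-primed, 16, 15, 15 and 7 in the Spl-primed and 7, 14, 12 and 12 in the parental libraries. The groups overlapped, and its edgeR adjusted p was 0.144 for Tu-primed and 0.911 for Spl-primed against parental cells. Without parental replicate 1, the log2 fold change of Tu-primed against parental cells was -0.85 with an edgeR adjusted p of 0.0449, which makes 8 members called in place of 7. Aldh1a3 (chr7:66390890-66427517, minus strand), the other retinaldehyde enzyme here, had 1 to 11 reads per library. Aldh1b1 (chr4:45799022-45804604, plus strand), a mitochondrial relative of Aldh2, had 0 to 8 reads per library, and the 0 reads of parental replicate 4 allow a level of up to 0.120 CPM. Differences of these 2 genes were not detectable at this depth.

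The reads of a gene were further divided between its annotated transcripts, a division that the counting estimates and that was therefore only described. Reads on transcripts not annotated as protein coding made up 3.40, 3.83, 4.77 and 3.08% of Aldh2 in the Tu-primed libraries and 3.68, 3.15, 3.96 and 4.38% in the Spl-primed libraries. In the parental libraries this share was 0.434, 0.861, 0.266 and 0.256%. The primed libraries were all above the parental ones, and the reads lay on the retained-intron transcripts Aldh2-203 and Aldh2-205. Aldh2-205 held 111 to 160 reads in Tu-primed, 129 to 165 in Spl-primed and 15.9 to 47.2 in parental libraries.

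Aldh9a1 and Aldh7a1 showed the same separation. How many of all genes show it was not counted, so it cannot be called particular to these members. The share in Aldh9a1 was 1.52 to 2.68% in Tu-primed, 1.01 to 2.17% in Spl-primed and 0 to 0.295% in parental libraries. In Aldh7a1 it was 0.316 to 1.05% in Tu-primed and 0.246 to 0.419% in Spl-primed libraries, and 0% in every parental library, and these shares rest on at most 15.4 estimated reads per primed library. In TPM, which divide reads by transcript length, the mean share was 5.05% and 5.12% for Aldh2 and higher, 8.76% and 7.08%, for Aldh9a1 in Tu-primed and Spl-primed cells. Groups overlapped for Aldh3a2 (0.686 to 2.41% over all libraries) and Aldh18a1 (1.95 to 7.07%). Over the whole library, transcripts annotated as retained introns took 3.26 to 3.48% of the reads in Tu-primed, 3.04 to 3.63% in Spl-primed and 2.04 to 2.27% in parental cells, and the part of this difference in the shares above was not tested.

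**Figure D4:**
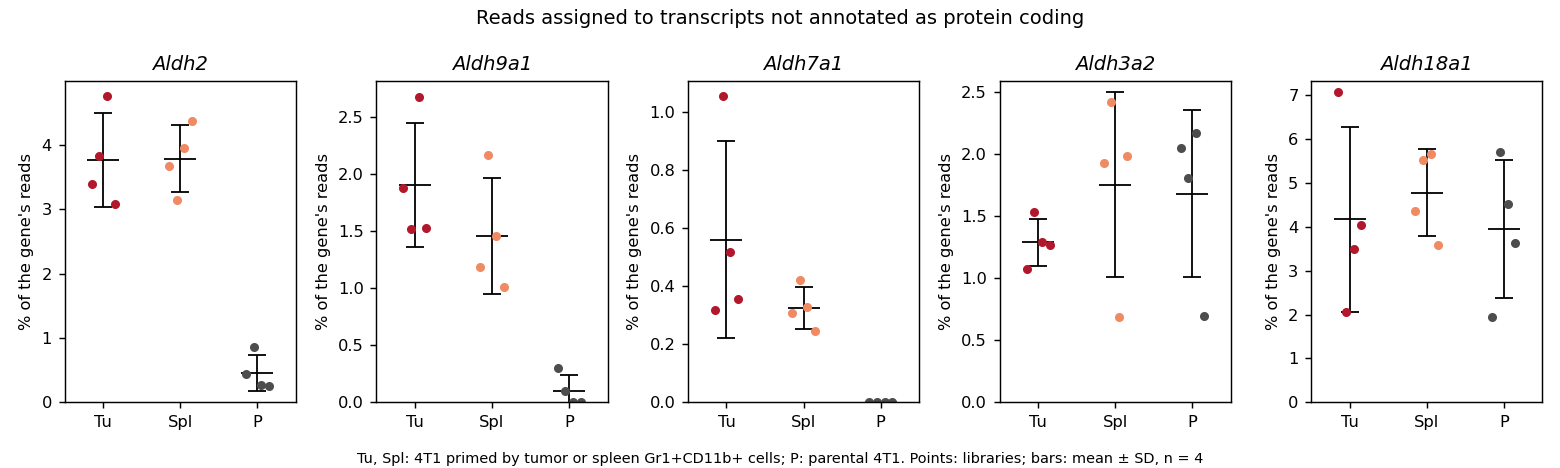
Each panel plots, for 1 gene, the percentage of its reads assigned to transcripts not annotated as protein coding (y axis, starting at 0) in Tu-primed (Tu), Spl-primed (Spl) and parental (P) libraries, with the mean ± SD (n = 4). For Aldh2, Aldh9a1 and Aldh7a1 all 8 primed libraries lie above all 4 parental libraries, and for Aldh3a2 and Aldh18a1 the groups overlap.

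Among coding transcripts, Aldh3a2-203 set both primed groups apart from parental cells, while the primed groups overlapped. It held 205 to 275 reads in Tu-primed, 221 to 257 in Spl-primed and 40.5 to 87.4 in parental libraries. It was a minor form, at most 4.60% of the gene's reads, and Aldh3a2-202 carried 84.4 to 95.3%. Aldh7a1-208 took 8.87 to 9.68% of its gene's reads in Tu-primed, 7.54 to 8.14% in Spl-primed and 6.65 to 7.87% in parental libraries. The division of Aldh3a1 between its coding transcripts was unstable within groups. Aldh3a1-202 took 46.1 to 89.1% of the gene's reads in Tu-primed, 55.7 to 72.2% in Spl-primed and 61.7 to 85.0% in parental libraries, so that no difference between forms of Aldh3a1 can be read.

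The 11 other Aldh genes were mostly silent or low. Aldh1a2, Aldh1l1, Aldh3b2 and Aldh3b3 had 0 reads in every library, and 5 of the 11 were tested. For this and the following lists, 4.66% of all tested genes were higher and 2.97% lower in Tu-primed than in Spl-primed cells. Against parental cells these shares were 31.2% and 28.0% in Tu-primed, and 25.7% and 22.5% in Spl-primed cells. 0 of the 5 passed between Tu-primed and Spl-primed cells in edgeR, DESeq2 or limma-voom, nor at an unadjusted edgeR p under 0.05, and the median log2 fold change was -0.02. Against parental cells 2 were lower in each primed group and 0 were higher in all 3 tools, with 1 more higher in Tu-primed cells at an unadjusted edgeR p under 0.05. Aldh4a1, the mitochondrial enzyme of proline breakdown, fell by 0.76 ± 0.15 on the log2 scale in Tu-primed (edgeR adjusted p = 0.000769) and by 0.48 ± 0.15 in Spl-primed cells (edgeR adjusted p = 0.0174). Aldh16a1 fell by 0.38 ± 0.09 in Tu-primed (edgeR adjusted p = 0.00274) and by 0.31 ± 0.09 in Spl-primed cells (edgeR adjusted p = 0.0119). With library totals 2 genes were higher and 1 lower in Tu-primed cells, and 1 was higher and 0 were lower in Spl-primed cells. The Aldh16a1 calls were lost on that scale (edgeR adjusted p = 0.0718 and 0.203), as was that of Aldh4a1 in Spl-primed cells (edgeR adjusted p = 0.100).

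Genes of alcohol and aldehyde reduction were counted next, as a list. Of 8 tested genes of this list, 0 passed between Tu-primed and Spl-primed cells in edgeR, DESeq2 or limma-voom, and 1 was lower at an unadjusted edgeR p under 0.05 (median log2 fold change -0.10). In Tu-primed against parental cells 1 was higher in edgeR and limma-voom and 0 in DESeq2, and 7 were lower by each tool (median -0.33). In Spl-primed cells 0 were higher and 6 lower by each tool (median -0.27), and 0 were higher at an unadjusted edgeR p under 0.05. With library totals 1 was higher and 3 were lower in Tu-primed, and 1 was higher and 1 lower in Spl-primed cells. Akr1b8 fell by 0.44 ± 0.07 in Tu-primed (edgeR adjusted p = 7.81e-05) and by 0.35 ± 0.07 in Spl-primed cells (edgeR adjusted p = 0.000793). Akr1b3, the aldose reductase gene, fell by 0.54 ± 0.09 in Tu-primed (edgeR adjusted p = 0.000167) and Adh5, which clears formaldehyde bound to glutathione, by 0.31 ± 0.06 (edgeR adjusted p = 0.000626, and 0.0757 with library totals).

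In the list for proline and glutamate metabolism, around the reaction of Aldh18a1, 7 genes were tested. Between Tu-primed and Spl-primed cells 1 was higher and 1 lower (median log2 fold change -0.08). These were Glul, the glutamine synthetase gene, at 0.17 ± 0.04 (edgeR adjusted p = 0.0272), and Prodh, which starts proline breakdown, at -0.45 ± 0.12 (edgeR adjusted p = 0.0343). Against parental cells 1 was higher and 3 lower in Tu-primed cells (median -0.25), and 1 was higher and 2 lower in Spl-primed cells (median -0.15). Glud1, for glutamate dehydrogenase, fell by 0.36 ± 0.05 in Tu-primed and by 0.26 ± 0.05 in Spl-primed cells. With library totals 3 genes were higher and 2 lower in Tu-primed cells, 2 were higher and 0 lower in Spl-primed cells, and the edgeR adjusted p of Glud1 in Spl-primed cells was 0.125.

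The list for the aryl hydrocarbon receptor, of which Aldh3a1 is a known target, was split between Tu-primed and Spl-primed cells. Of 7 tested genes 3 were higher and 1 lower (median log2 fold change 0.15), and limma-voom gave the same counts. In DESeq2 and with library totals 4 were higher and 1 lower. Cyp1b1, a cytochrome P450 and standard target of the receptor, held 112.6, 104.3, 120.9 and 71.2 CPM in Tu-primed and 53.4, 45.7, 42.6 and 54.1 CPM in Spl-primed libraries, without overlap. Its log2 fold change was 1.06 ± 0.14 (edgeR adjusted p = 0.000228). Cyp1a1, also on the list, had 2 to 10 reads per library and was not tested. The receptor gene Ahr rose by 0.58 ± 0.11 (edgeR adjusted p = 0.00481) and Tiparp, a target that represses the receptor, by 0.35 ± 0.07 (edgeR adjusted p = 0.00394).

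Nqo1, a quinone reductase gene, was the one that was lower, as Aldh3a1 was. It held 24.5, 24.3, 20.8 and 24.8 CPM in Tu-primed, 35.4, 32.0, 37.5 and 29.6 CPM in Spl-primed and 46.8, 46.6, 45.8 and 47.8 CPM in parental libraries. None of the 3 groups overlapped with another. Nqo1 fell by 0.51 ± 0.08 on the log2 scale in Tu-primed against Spl-primed cells (edgeR adjusted p = 0.000753), by 0.99 ± 0.08 in Tu-primed against parental cells (edgeR adjusted p = 3.38e-07) and by 0.48 ± 0.07 in Spl-primed against parental cells (edgeR adjusted p = 0.000191). In the list 4 genes were higher and 2 lower in Tu-primed against parental cells (median 0.25), and 1 was higher and 2 lower in Spl-primed against parental cells (median -0.03), where 1 was lower with library totals.

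The list for retinoid handling, which surrounds the retinaldehyde step of Aldh1a1 and Aldh1a3, had 12 tested genes. Between Tu-primed and Spl-primed cells 3 were higher and 1 lower (median log2 fold change 0.10), beside 4.66% and 2.97% of all tested genes. Among them Cyp26b1, which degrades retinoic acid, rose by 0.52 ± 0.11 (edgeR adjusted p = 0.00779), and Rdh10, which makes retinaldehyde, by 0.23 ± 0.05 (edgeR adjusted p = 0.0107). Dhrs9, a retinol dehydrogenase gene, fell by 0.57 ± 0.09 (edgeR adjusted p = 0.00132). Against parental cells 31.2% of all tested genes were higher and 28.0% lower in Tu-primed, and 25.7% and 22.5% in Spl-primed cells. Of this list 5 were higher and 4 lower in Tu-primed (median 0.18), and 2 were higher and 3 lower in Spl-primed cells (median 0.00). With library totals these counts were 6 higher and 3 lower in Tu-primed, and 5 higher and 1 lower in Spl-primed cells. Dhrs3, which reduces retinaldehyde, rose by 1.52 ± 0.21 in Tu-primed and by 0.99 ± 0.21 in Spl-primed cells, and Rxra, for a retinoid X receptor, fell by 0.64 ± 0.08 and 0.58 ± 0.08.

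**Figure D5:**
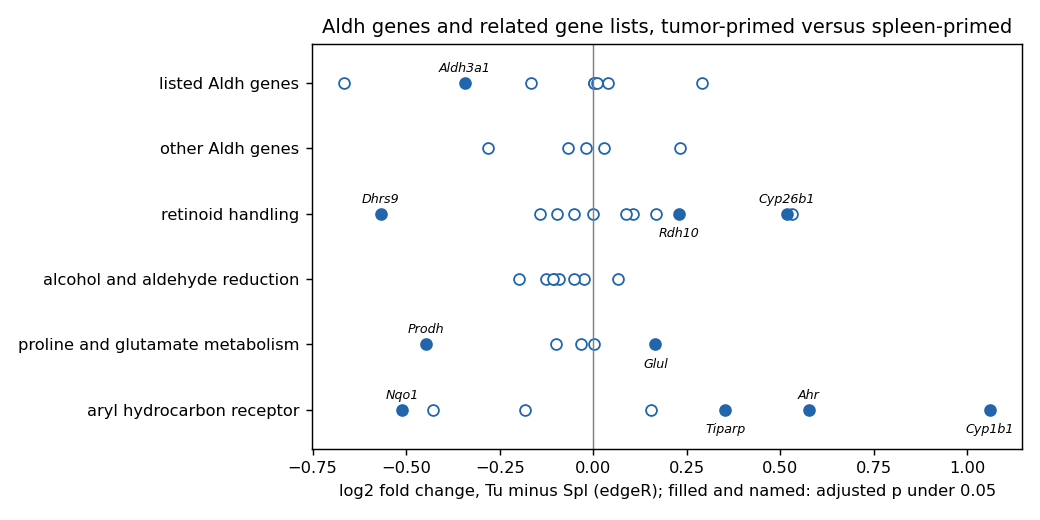
Each row plots the fitted log2 fold change (x axis, Tu-primed minus Spl-primed) of tested genes of 1 list, with the listed Aldh genes on top, and some list genes are not shown. Filled, named points passed an edgeR adjusted p of 0.05. Cyp1b1 lies farthest to the right at 1.06, and Aldh3a1, Nqo1, Dhrs9 and Prodh are the named points left of 0.

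The genes whose log2 CPM followed Aldh3a1 most closely over the 12 libraries were Atp5b (Pearson r = 0.995), Atic (r = 0.994) and Atp5a1 (r = 0.993). For Aldh2 they were Eef1d (r = 0.991), Tubb4b (r = 0.990) and Edf1 (r = 0.990). The points share their 3 groups, and no test was made. Atp5b, for a subunit of mitochondrial ATP synthase, averaged 1221 CPM in Tu-primed, 1384 CPM in Spl-primed and 1761 CPM in parental cells, the same order as Aldh3a1.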

How the data were processed

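Total RNA of 12 libraries (TruSeq Stranded kit) was analysed. Per the submitters' processing notes, the authors used FastQC, Trimmomatic 0.39 and Salmon 1.4.0 (GRCm38/mm10). The authors deposited estimated counts and TPM per transcript, and a table of normalized signal per gene whose method is not given in the sources used here. Estimated counts were summed per gene with GENCODE M21, which held 116021 of 117081 transcripts (0.326 to 0.419% of reads lay outside), and rounded. The fit in edgeR 4.0.16 (R 4.3.3) used TMM (factors 0.88 to 1.05), filterByExpr, all 12 libraries, group as the only term, a quasi-likelihood test and Benjamini-Hochberg adjustment over 12555 genes. CPM are TMM-scaled. Library totals without TMM and deposited TPM were scaling alternatives added after seeing the data, TPM without a test. mt-Atp8, of effective length 10.4, took 4.53 to 7.05% of the TPM in primed and 10.2 to 15.0% in parental libraries. The part of this in the TPM differences was not tested.

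The members and lists were chosen with earlier results of these data known. All 10 members are named. List genes are named where called between the primed groups or among the 3 smallest p against parental cells. Cyp1a1 and some low Aldh genes are named besides. The 3 most alike genes were sought for each of 2 members. Of the list genes, 1 was not found under its symbol, and some that the rule names are counted but not reported here by name. In simulated data for Tu-primed against Spl-primed cells, 186 of 200 genes changed by 2-fold were recovered with 6 false calls among 12462 genes. Smaller changes, such as those of the members between the primed groups, were not simulated. Libraries of a group differed by more than sampling noise (chi-square per degree of freedom 3.46 to 62.2). The largest values were between parental replicate 4 and parental replicates 1 and 2 (56.1 and 62.2). Spl-primed replicate 3 stood at 31.5 to 39.2 from the others of its group, which differed by at most 7.58. Replicate numbers were not a term of the main fit, and a fit with them as a block was an alternative. Limits for 0 reads (3 reads) cover counting error only. Levels between genes are CPM per kilobase of effective length, a unit chosen after seeing the data. DESeq2 1.42.0, limma 3.58.1 and other settings were alternatives. Protein sequences were not used here.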

Additional observations from a re-analysis of the deposited data

Results flagged for a closer look

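Among 41 groups of 4 libraries examined, 2 held a library far from the others by Dixon's test, which chance alone gives in about 1 group of 20. In both, few reads were counted. Aldh1a1 was lowest in Spl-primed replicate 4, at 0.244 CPM (7 reads), whereas the other Spl-primed libraries held 0.502 to 0.545 CPM. Aldh1b1 was highest in Spl-primed replicate 1, at 0.157 CPM, against 0.104 to 0.109 CPM in the others.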

How the results depend on the processing

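The number of members called between Tu-primed and Spl-primed cells was 1 and became 0 with transcript length offsets and with an adjusted p under 0.01, and it ranged from 0 to 1 over the fits leaving out 1 library (0 without Tu-primed replicate 2 or 3 or Spl-primed replicate 1 or 3). Against parental cells it ranged from 7 to 8 for Tu-primed and stayed at 6 for Spl-primed cells over those fits. With transcript length offsets the call of Aldh7a1 in Tu-primed against parental cells was lost. At an adjusted p under 0.01 its call in Spl-primed against parental cells (edgeR adjusted p = 0.0116) was lost. Log2 fold changes that were near 0 and not called changed sign. The deposited normalized values, TPM and library totals were added as alternatives after seeing the data. With length offsets the values were -0.040 for Aldh3a2 and -0.024 for Aldh18a1 between the primed groups, and in the deposited normalized values -0.031 and -0.015. On leaving out 1 library they ranged from -0.017 to 0.041 for Aldh3a2, from -0.026 to 0.046 for Aldh7a1, from -0.0061 to 0.049 for Aldh9a1 and from -0.0038 to 0.081 for Aldh18a1 between the primed groups, and from -0.18 to 0.26 for Aldh1a1 in Spl-primed against parental cells. In the deposited TPM the log2 fold changes against parental cells turned from below to above 0, at 0.0099 (Tu-primed) and 0.10 (Spl-primed) for Aldh2, 0.31 and 0.19 for Aldh7a1, 0.22 and 0.13 for Aldh9a1, and 0.13 and 0.084 for Aldh18a1. With library totals in place of TMM 1, 6 and 6 members were called, and Aldh7a1 was at 0.0042 in Tu-primed against parental cells. With TPM in place of estimated reads, the mean non-coding share became 5.05% (Tu-primed) and 5.12% (Spl-primed) for Aldh2, and 2.52% and 1.77% for Aldh7a1. It became 8.76%, 7.08% and 0.527% (parental) for Aldh9a1, 5.48%, 7.14% and 6.73% for Aldh3a2, and 27.9%, 32.9% and 29.8% for Aldh18a1. TPM divide reads by transcript length, so short transcripts weigh more in these shares. In Tu-primed replicate 1, the retained-intron transcript Aldh18a1-204 had 70.1 reads and 11.3 TPM, against 933.8 reads and 13.7 TPM for Aldh18a1-201. Same-numbered libraries correlated at -0.16 to 0.02 between Tu-primed and Spl-primed cells and at -0.16 to 0.07 between Spl-primed and parental cells. Between Tu-primed and parental cells the correlations were 0.08 to 0.15. There 3 of 4 Tu-primed libraries correlated best with the parental library of their own number, against 0 of 4 in each other comparison. Whether the numbers pair these samples is not known. With the replicate block 1, 7 and 6 members were called, as without it. Depth limits what can be said of Aldh1a1, Aldh1a3 and Aldh1b1, with 16 reads or fewer per library.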
